A study of Mus musculus with 35 samples.

Results

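The transcripts described here belong to 10 mouse genes of the interleukin 1 (IL-1) system and the inflammasome, chosen by name for their function among 32245 gene symbols in the count tables of the lactate experiment and of the technique comparison and 35624 in the table of the AZD3965 experiment. They are the cytokine genes *Il1a*, *Il1b* and *Il18*, the antagonist gene *Il1rn*, the receptor genes *Il1r2* and *Il1rap*, and the inflammasome genes *Nlrp3*, *Pycard*, *Casp1* and *Gsdmd*. All 10 were found in each table. Earlier results of these data were known when the genes were chosen.

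The RNA of 35 single cells from cultures of peritoneal macrophages was sequenced, each as a library of its own. The macrophages came from male C57BL/6 mice aged 6 months, were washed out of the peritoneal cavity and were left to adhere for 24 h, after which treated cultures received 10 mM lactate, with or without 300 nM AZD3965, for 72 h. AZD3965 is an inhibitor of MCT1, through which lactate enters and leaves cells. In scMeT-seq a fine capillary draws off a little cytoplasm for metabolome profiling before the same cell is lysed and its RNA amplified by SMART-seq2, a full-length method based on poly(A) priming. The lactate experiment holds 8 lactate-treated and 8 control scMeT-seq cells, the AZD3965 experiment holds 5 cells given lactate and AZD3965 (lactate+AZD) and 5 given lactate alone, and the technique comparison holds 4 lactate-treated scMeT-seq cells, 3 lactate-treated whole cells and 2 control whole cells.

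IL-1α and IL-1β, the products of *Il1a* and *Il1b*, bind the same signalling receptor, IL-1R1, which works together with the accessory protein encoded by *Il1rap*. The product of *Il1rn* occupies IL-1R1 without signalling, and that of *Il1r2* is a decoy receptor that binds IL-1 but does not signal. IL-1β and IL-18 are made as inactive precursors. A sensor such as NLRP3 assembles with the adaptor ASC, encoded by *Pycard*, and recruits caspase-1, which cleaves both precursors and also gasdermin D, whose fragment forms pores in the plasma membrane. In macrophages the transcription of *Il1b* and *Nlrp3* is known to rise after contact with microbial products.

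*Il1a* and *Il1b* are neighbours on chromosome 2, 54.6 kb apart and both on the minus strand, at chr2:129299610-129309972 and chr2:129364570-129371139 (GENCODE M21 on GRCm38, the build named mm10 in the submitters' processing notes). *Il1rn* lies on the plus strand of the same chromosome at chr2:24336853-24351494. *Casp1* and *Il18* share chromosome 9, at chr9:5298517-5307265 and chr9:50554827-50581840. The others are *Il1r2* (chr1:40074079-40125231), *Pycard* (chr7:127989708-127993867), *Nlrp3* (chr11:59541568-59566956), *Gsdmd* (chr15:75862327-75867408) and *Il1rap* (chr16:26581704-26730117).

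The 250 bases upstream of the RefSeq transcription start (GRCm38.p6) are printed for *Il1a*, *Il1b* and *Il18*, because these are the cytokine genes whose counts differed most between lactate-treated and control scMeT-seq cells. Each is written 5′ to 3′ on the strand of the gene, with matches to the searched motifs in capitals. The *Il1a* window is chr2:129309973-129310222 on the minus strand, the *Il1b* window chr2:129371140-129371389 on the minus strand, and the *Il18* window chr9:50554450-50554699 on the plus strand.
Il1a: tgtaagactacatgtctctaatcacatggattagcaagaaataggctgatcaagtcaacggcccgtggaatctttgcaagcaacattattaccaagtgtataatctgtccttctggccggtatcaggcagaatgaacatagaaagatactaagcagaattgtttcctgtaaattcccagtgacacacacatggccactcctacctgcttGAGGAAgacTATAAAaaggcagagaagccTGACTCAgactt
Il1b: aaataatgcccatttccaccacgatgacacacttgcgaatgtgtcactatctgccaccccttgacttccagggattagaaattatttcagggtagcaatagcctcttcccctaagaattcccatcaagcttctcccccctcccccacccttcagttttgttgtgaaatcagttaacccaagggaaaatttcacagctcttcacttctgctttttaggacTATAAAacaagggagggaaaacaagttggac
Il18: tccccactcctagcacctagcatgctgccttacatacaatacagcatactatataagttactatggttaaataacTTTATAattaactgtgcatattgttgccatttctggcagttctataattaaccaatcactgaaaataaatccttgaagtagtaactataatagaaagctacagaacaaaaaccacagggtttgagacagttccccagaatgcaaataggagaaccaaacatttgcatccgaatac

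The TATA motif TATAAA lay 32 to 27 bases upstream of the start of *Il1a* and 31 to 26 bases upstream of that of *Il1b*, while its only match at *Il18* was on the opposite strand, 175 to 170 bases upstream. Across 32851 windows of the same length, 12.4% held TATAAA on either strand. The AP-1 motif TGANTCA lay 12 to 6 bases upstream of *Il1a* and is present in 6.75% of all windows, and the PU.1 motif GAGGAA lay 41 to 36 bases upstream of *Il1a* and is present in 23.3%. No match to the kappa B motif (7.25% of windows), to the C/EBP motif TTNNGCAA (9.56%), to the ISRE motif (2.98%) or to the HRE core ACGTG (16.6%) was found in these 3 windows on either strand. Windows were at hand for 9 of the 10 genes, some with more than 1 start. These matches are letters in a window and no record of binding.

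The 18 macrophage markers examined were each detected in every table. Counts per library ran between 289002 and 459859 for lactate-treated and between 269393 and 449735 for control cells of the lactate experiment, between 58444 and 149792 for lactate+AZD and between 90523 and 175450 for lactate cells of the AZD3965 experiment, and between 494520 and 851417 in the technique comparison. In 4 cells the markers of fibroblasts or mesothelium reached 10% or more of the summed macrophage markers: the lactate-treated cell Lactic29, the control cells CTL30 and CTL32, and the lactate+AZD cell W14. Under that limit, the lactate cell W5 of the AZD3965 experiment had 7696 CPM of fibroblast markers (6.52%), near the 8183 CPM of Lactic29. CTL32 goes against its label, with 2530 CPM (counts of a gene scaled to a common library total) of macrophage markers and 49328 CPM of fibroblast markers. In the lactate experiment, ratios of the 10 genes that moved without the marked cells are given in that form as well. For the AZD3965 experiment, values without W14 are given for some of the genes. Ratios of further genes of the pathway are given with all cells only. Of the markers of neutrophils, which also express *Il1b* and *Il1r2*, *S100a9*, *Ly6g*, *Retnlg*, *Ngp* and *Elane* were listed at 0 in all 35 cells, whereas in the lactate experiment *S100a8*, *Mmp8* and *Mmp9* had counts in all 16 cells and *Csf3r* and *Lcn2* in 15. The summed neutrophil list ran between 1391 and 7425 CPM in lactate-treated and between 302 and 4495 CPM in control cells of the lactate experiment, with *Mmp9* its most abundant gene, and 8 of its 14 genes were at 0 there. The list reached 10% of the macrophage markers only in CTL32 (11.9%), whose macrophage markers were low and whose neutrophil list, at 302 CPM, was the lowest of the experiment. Without that cell the log2 ratios of lactate-treated over control scMeT-seq cells were 3.40 for *Il1b* and 2.75 for *Il18*. Leaving out CTL32 removes no cell with a high neutrophil list, so the dependence of these ratios on neutrophil transcripts was not tested.

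The animal and the culture of a cell are not stated, so each group counts as 1 sample, no test over cells was run, and no difference has a replicate check. Group levels are summed counts in CPM, and a log2 ratio of summed CPM carries an exact conditional binomial 95% interval that covers counting error only, since copies made by amplification count as separate reads. A gene with 10 or more counts over both groups is called measured. For each cell the level is its own CPM.

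**Figure D1:**
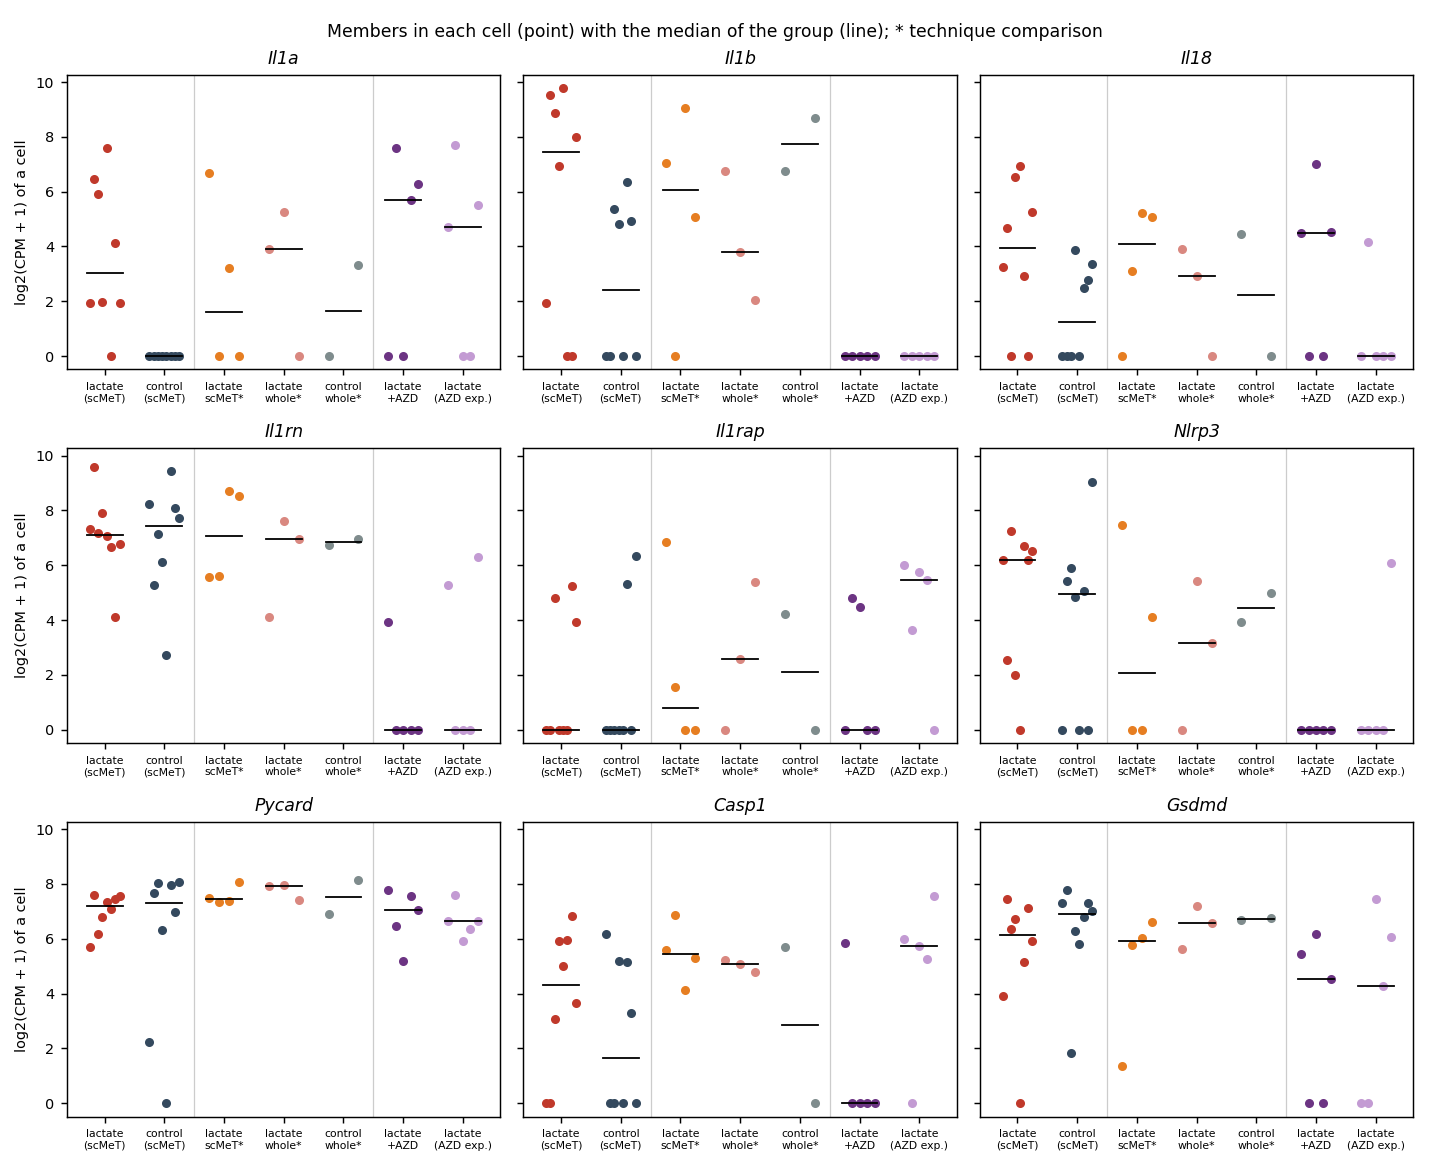
Level of 9 of the genes in every cell, as log2(CPM + 1) on the vertical axis, with each point a cell and each line the median of its group along the horizontal axis. *Il1a* is at 0 in all 8 control scMeT-seq cells and *Il1b* at 0 in all 10 cells of the AZD3965 experiment, whereas *Pycard* has a count in 34 of 35 cells. *Il1r2*, at 0 in every cell, is not drawn.

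Lactate-treated scMeT-seq cells carried more *Il1a*, *Il1b* and *Il18* RNA than control cells. Of the 9 measured genes, 4 were at least 2-fold higher and 0 were at least 2-fold lower, against 15.1% and 22.0% of all 11505 measured genes. The 4 were these cytokine genes and *Casp1*. The median log2 ratio of the 9 was −0.07, beside −0.09 over all genes.

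*Il1a* had a count in 7 of 8 lactate-treated cells and was listed at 0 in all 8 control cells. The exact binomial upper limit for 0 of 8 cells is 36.9%, but it takes the cells as independent, which is not known here. In lactate-treated cells its lowest level was 0, the median 9.63 and the highest 190 CPM. The 7 cells with a count include 3 with a single read, and most of the signal was in Lactic31, Lactic28 and Lactic29, which had 55, 36 and 24 counts. The summed level was 41.1 CPM in lactate-treated cells and 0 in control cells, which is at least 40.3-fold higher against a floor of 3 counts over the control group (log2 bound 5.33, or 4.64 without Lactic31).

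*Il1b* had a count in 6 of 8 lactate-treated and 4 of 8 control cells. Its lowest, median and highest levels were 0, 187 and 882 CPM in lactate-treated cells and 0, 13.7 and 80.2 CPM in control cells. In 5 lactate-treated cells *Il1b* exceeded the highest control cell, while Lactic32 and Lactic33 had none, so the groups overlapped. The summed level was 289 CPM in lactate-treated cells against 24.1 CPM in control cells, a log2 ratio of 3.58 (95% interval 3.23 to 3.95). The ratio stayed between 3.19 and 4.33 as each cell was left out in turn, and the highest value came without CTL33, which held 49.3% of the control counts.

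*Il18* ran lower. Its lowest, median and highest levels were 0, 16.4 and 121 CPM in lactate-treated cells and 0, 2.29 and 13.7 CPM in control cells, and 4 of 8 lactate-treated cells lay above every control cell. The summed level was 31.3 CPM in lactate-treated cells and 4.08 CPM in control cells (log2 ratio 2.94, interval 2.07 to 3.94). The control value rests on 12 counts in 4 cells. Without CTL31 the ratio was 3.52.

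Without the 3 cells of this experiment that carried fibroblast markers, the log2 ratios were 4.81 for *Il1a*, again against the floor, 3.37 for *Il1b* and 2.72 for *Il18*. The higher levels of the 3 cytokine genes were therefore measured in the remaining cells as well.

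The antagonist gene *Il1rn* did not follow the cytokine genes. It had a count in all 16 cells, with 16.3, 137 and 759 CPM (lowest, median and highest) in lactate-treated and 5.54, 175 and 694 CPM in control cells. The summed levels of 209 CPM in lactate-treated and 219 CPM in control cells gave a log2 ratio of −0.07 (−0.23 to 0.10), and a 2-fold difference lies outside this counting interval. Lactic28 and CTL33 held 49.0% and 47.1% of the counts of their groups, and leaving out either moved the ratio to between −0.83 and 0.62. Without the fibroblast-marked cells the ratio was −0.29.

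The balance of agonist to antagonist RNA was followed in each cell as the share of *Il1b* in the sum of *Il1b* and *Il1rn*, both in counts per kb of annotated exon. In lactate-treated cells the lowest, median and highest shares were 0, 66.8 and 95.1%, and in control cells 0, 12.0 and 53.7%. The share was over 50% in 5 of 8 lactate-treated cells and in 1 of 8 control cells. Within the lactate-treated cells it was at or below 4.85% in Lactic27, Lactic32 and Lactic33 and at or above 59.8% in the other 5. The 0% of Lactic33 rests on 7 counts of *Il1rn*, and its interval, up to 66.8%, overlaps that of Lactic30 (49.9 to 68.7%). Without the 3 fibroblast-marked cells the medians were 59.8% in lactate-treated and 12.0% in control cells, with 4 of 7 and 1 of 6 cells over 50%. The size of the share depends on the length taken for *Il1rn*, which is 5.54 kb for the union of its exons. With the longest coding transcript of each gene the medians were 56.1% in lactate-treated and 8.27% in control cells, with 4 and 0 cells over 50%. With the shortest, which is only 0.321 kb for *Il1rn*, they were 14.8% and 1.25%, with 1 and 0 cells. The order of the group medians was the same under each length.

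**Figure D2:**
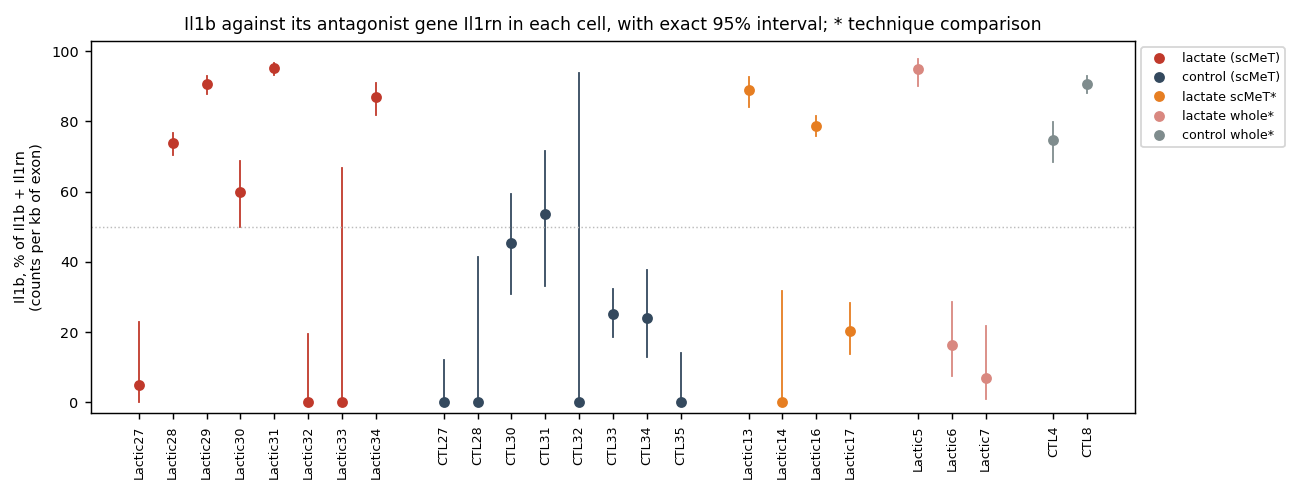
Share of *Il1b* in the sum of *Il1b* and *Il1rn*, in percent of counts per kb of exon, in each cell with its exact 95% interval, for the lactate experiment and the technique comparison. Of the scMeT-seq cells, 5 of 8 lactate-treated and 1 of 8 control cells lie over 50%, and the 2 control whole cells lie at 74.6 and 90.7%.

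The inflammasome genes were mixed. *Nlrp3* had a count in 7 of 8 lactate-treated and 5 of 8 control cells, with 0, 72.5 and 152 CPM (lowest, median and highest) in lactate-treated and 0, 29.8 and 525 CPM in control cells. The highest cell of all was the control CTL35, which held 72.2% of the control counts. The log2 ratio of the sums, 66.1 CPM in lactate-treated over 80.6 CPM in control cells, was −0.28 (−0.56 to −0.01), and −0.89 without the fibroblast-marked cells, but 1.39 without CTL35 and 1.28 by the median of cells, so the direction of *Nlrp3* depended on that cell.

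*Casp1*, encoding caspase-1, had 0, 21.3 and 114 CPM (lowest, median and highest) in lactate-treated and 0, 4.41 and 70.5 CPM in control cells. Its summed level of 37.2 CPM in lactate-treated and 16.99 CPM in control cells gave a log2 ratio of 1.13 (0.64 to 1.64). This value was close to the 2-fold limit and lay under it in several settings, at 0.53 without Lactic33, 0.87 without the fibroblast-marked cells, 0.94 without CTL32, 0.80 after thinning and 0.93 by the mean of cells. Leaving out Lactic32, CTL28, CTL30 or CTL35 gave 0.96, 0.89, 0.92 and 0.96.

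Of the inflammasome genes, *Pycard* and *Gsdmd* were found in the most cells. *Pycard* had 50.4, 147 and 193 CPM (lowest, median and highest) in lactate-treated and 0, 162 and 267 CPM in control cells, with a log2 ratio of −0.22 (−0.41 to −0.02). The control cell at 0 was the fibroblast-marked CTL32. *Gsdmd* had 0, 70.5 and 176 CPM in lactate-treated and 2.53, 120 and 220 CPM in control cells, with a log2 ratio of −0.52 (−0.76 to −0.27), or −0.86 without the fibroblast-marked cells. Neither passed 2-fold, and the groups overlapped in both. *Il1rap* had a count in 3 of 8 lactate-treated and 2 of 8 control cells, at a log2 ratio of −0.47 (−1.18 to 0.22), and at −1.30 without the fibroblast-marked cells, −1.25 without Lactic33 and 0.70 without CTL35. *Il1r2* was listed at 0 in all 16 cells.

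**Figure D3:**
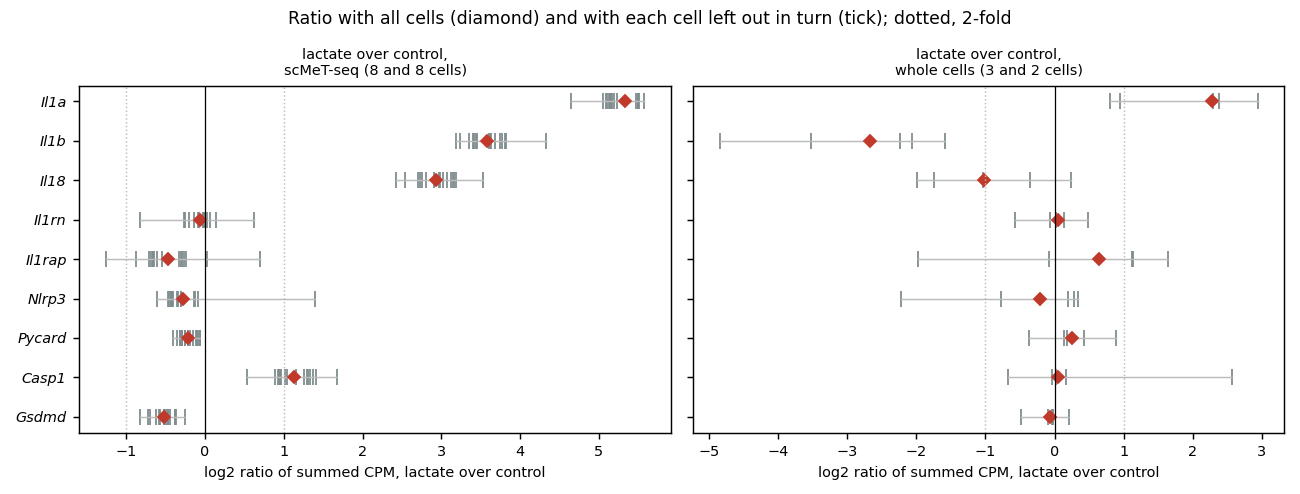
Log2 ratio of summed CPM, lactate-treated over control, for each gene in scMeT-seq cells (left) and whole cells (right), with all cells (diamond) and with each cell left out in turn (ticks). In scMeT-seq cells the ticks of *Il1b* lie between 3.19 and 4.33 and those of *Il18* between 2.42 and 3.52, while in whole cells the ticks of *Il1b* lie between −4.84 and −1.58.

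Per kb of exon, the order of summed levels differed between the groups. In lactate-treated cells *Il1b* stood highest with 152 CPM per kb, ahead of *Il1rn* (37.7), *Pycard* (35.5) and *Gsdmd* (33.4), which lay close together. In control cells *Gsdmd* (47.8), *Pycard* (41.3) and *Il1rn* (39.5) were the highest, and *Il1b* followed *Nlrp3* at 12.7 CPM per kb. Their order depends on the length taken, since with the longest coding transcript of each gene *Il1rn* (88.3) lay above *Gsdmd* (63.3) and *Pycard* (41.3) in control cells, while *Il1b* (213) stayed the highest in lactate-treated cells, ahead of *Il1rn* (84.4). Over the 16 cells the highest Spearman correlations between genes of the set were 0.67 for *Il1a* with *Il1b*, 0.59 for *Nlrp3* with *Il1rap* and 0.54 for *Il1b* with *Il18*. The lowest was −0.24 for *Casp1* with *Pycard*. The points share the treatment contrast and libraries of 1 experiment, and these values are descriptions.

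By the same measure the genes most like *Il1b*, among 7622 with a count in 8 or more of the 16 cells, were *Plekhn1* (0.78), *Ube2k* (0.78), *Selenon* (0.75), *Phlpp1* (0.75) and *Gsdme* (0.74). *Gsdme* encodes gasdermin E, a pore-forming relative of gasdermin D that caspase-3 cleaves. Its summed level was 53.6 CPM in lactate-treated and 15.6 CPM in control cells. In the same order, the levels were 65.1 and 7.14 CPM for *Plekhn1*, 158 and 136 CPM for *Ube2k*, 29.6 and 20.7 CPM for *Selenon*, and 88.2 and 89.7 CPM for *Phlpp1*. These are the highest of 7622 correlations over 16 cells, and how high such values run by chance was not tested.

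Lactate treatment was also measured in whole cells, 3 treated and 2 control, none of which enter the comparison above. There *Il1b* differed the other way. It had 107, 13.1 and 3.15 CPM in the lactate-treated cells Lactic5, Lactic6 and Lactic7, against 108 and 415 CPM in the control cells CTL4 and CTL8. All 3 lactate-treated cells lay below both control cells, although Lactic5 and CTL4 were nearly level, and 15.4% of 9732 genes showed such a separation in that direction. The summed levels of 36.1 CPM in lactate-treated and 230 CPM in control cells gave a log2 ratio of −2.67 (−3.08 to −2.28). It was −1.58 without CTL8, −2.06 without Lactic7, −3.52 without CTL4 and −4.84 without Lactic5. The difference between this ratio and that of the scMeT-seq cells was not tested, and the experiment, the technique and the number of cells changed together.

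Of the 9 genes measured in whole cells, 1 was at least 2-fold higher and 2 were at least 2-fold lower, against 15.2% and 27.6% of all genes. The higher one was *Il1a*, with 14.2, 37.5 and 0 CPM in lactate-treated and 0 and 8.91 CPM in control cells, a log2 ratio of 2.28 (0.90 to 4.00) that was 0.81 without Lactic6, 0.95 without CTL4 and 2.94 without Lactic7. *Il18* was the other lower gene, with 14.2, 6.53 and 0 CPM in lactate-treated and 21.1 and 0 CPM in control cells. Its log2 ratio of −1.01 (−2.24 to 0.15) rested on 29 counts, and it turned to 0.24 without CTL4 and was −0.36 without Lactic7, −1.74 without CTL8 and −1.99 without Lactic5.

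*Il1rn* again lay close to no difference, with 16.2, 194 and 123 CPM in lactate-treated and 107 and 123 CPM in control whole cells (log2 ratio 0.05, −0.25 to 0.36). So did *Pycard* (0.25), *Gsdmd* (−0.06), *Casp1* (0.05) and *Nlrp3* (−0.21), while *Il1rap* was at 0.65 (−0.30 to 1.65). With so few cells these were not stable: *Casp1* stood at 2.56 without CTL4, *Nlrp3* at −2.21 without Lactic6 and *Il1rap* at −1.97 without Lactic7. The share of *Il1b* in *Il1b* plus *Il1rn* per kb was 95.1, 16.3 and 6.93% in the lactate-treated and 74.6 and 90.7% in the control whole cells.

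**Figure D4:**
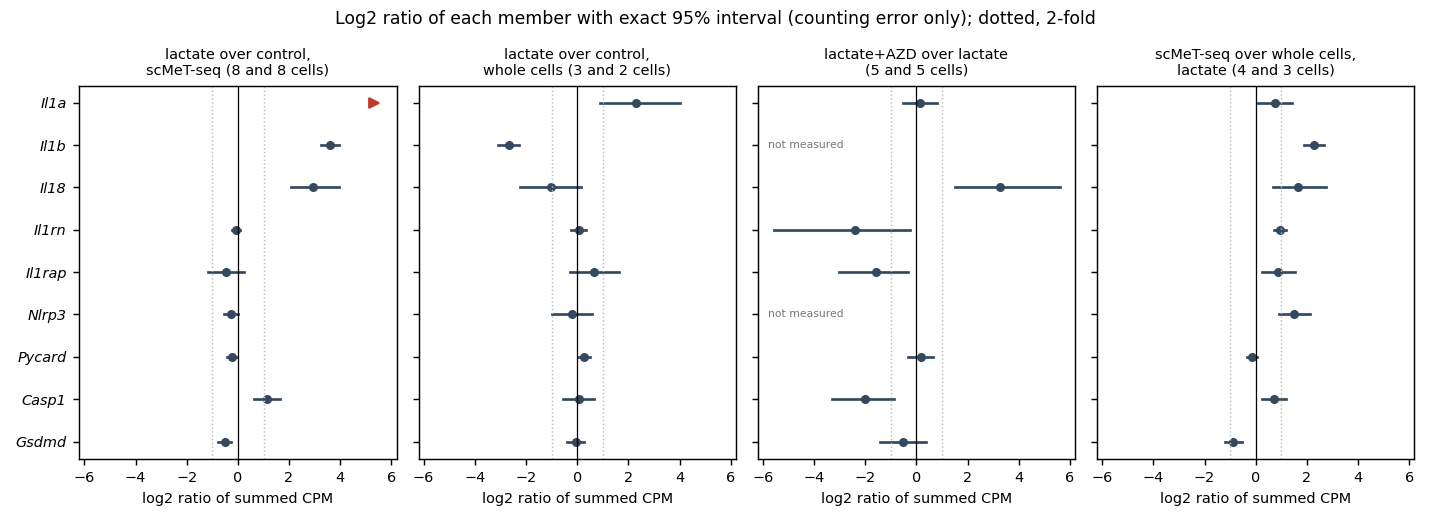
Log2 ratio of summed CPM for each gene in the 4 comparisons, with its exact 95% interval for counting error (line) and the 2-fold limits (dotted). The triangle for *Il1a* marks a ratio against a floor of 3 counts in the control group. *Il1b* is at 3.58 in scMeT-seq cells, −2.67 in whole cells and 2.27 for scMeT-seq over whole cells, and was not measured in the AZD3965 experiment.

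Adding the MCT1 inhibitor to lactate was compared in the AZD3965 experiment, whose libraries were the shallowest. *Il1b* was listed at 0 in all 10 cells, and a floor of 3 counts over a group corresponds to 5.16 CPM with the inhibitor and 4.16 CPM with lactate alone. This is 1 of 4 genes at 0 in this table among 1319 with 100 CPM or more in both other tables. An exact 0 need not mean that the RNA was missing, because *B2m*, which nearly every cell uses, had 2612 CPM in this table and was at 0 in both others. The cause of these zeros was not tested, and no statement on *Il1b* with AZD3965 can be made. Counts of 2 were also more frequent than counts of 1 in this table (6215 against 1914 values), and intervals with all counts halved are therefore named where they reach 0.

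Of 7 measured genes, 1 was at least 2-fold higher and 3 were at least 2-fold lower in lactate+AZD cells than in lactate cells, against 24.9% and 15.6% of 8764 genes. *Il1a* had 0, 194, 0, 51.3 and 77.5 CPM in the lactate+AZD cells T10, W10, W14, F8 and F9, against 25.1, 205, 0, 0 and 44.2 CPM in the lactate cells T11, T13, W5, W20 and F18. In both groups 3 of 5 cells had a count, and the log2 ratio was 0.14 (−0.52 to 0.79). It was −1.40 without W10 and 2.19 without T13, each of which held most of the counts of its group. *Pycard* had 220, 86.8, 35.4, 188 and 133 CPM in lactate+AZD cells against 101, 194, 60.0, 80.2 and 99.4 CPM in lactate cells, a log2 ratio of 0.16 (−0.32 to 0.64).

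*Casp1* had 8 counts in lactate+AZD cells, all in T10 (56.7 CPM), whereas 4 of 5 lactate cells had a count, at 62.8, 0, 52.5, 37.0 and 188 CPM in the cell order above. The summed level was 13.8 CPM in the lactate+AZD group against 55.5 CPM in the lactate group, a log2 ratio of −2.01 (−3.32 to −0.90). It was −3.03 without T10 and −1.41 without F18, and among the cells whose names begin with T, a letter whose meaning is not given in the sources used here, it was 0.92, in the other direction. *Il1rap* had 26.7 and 21.2 CPM in W10 and W14 and 0 in the other lactate+AZD cells, against 62.8, 11.4, 52.5, 43.2 and 0 CPM in lactate cells (log2 ratio −1.58, −3.03 to −0.34, or −2.38 without W10 and −1.99 without W14). *Il1rn* had only 2 counts in lactate+AZD cells, both in T10, and 13 in lactate cells, in T11 and F18 (log2 ratio −2.39, −5.58 to −0.25, or −1.40 without T10). With counts halved the intervals of *Il1rn* and *Il1rap* reached 0.77 and 0.06.

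*Il18* was the gene that was higher, with 21.2, 0, 127, 0 and 22.1 CPM in lactate+AZD cells against 0, 17.1, 0, 0 and 0 CPM in lactate cells (log2 ratio 3.25, 1.52 to 5.63). The fibroblast-marked cell W14 held 78.3% of the lactate+AZD counts, and without it too few counts remained for a ratio. *Gsdmd* had 42.5, 0, 70.7, 0 and 22.1 CPM in lactate+AZD cells against 0, 0, 172, 18.5 and 66.3 CPM in lactate cells (log2 ratio −0.52, −1.44 to 0.36), and moved to −1.29 without W14 and 1.01 without W5. *Nlrp3* was at 0 in all lactate+AZD cells and had 6 counts in F18 among the lactate cells. *Il1r2* was at 0 throughout.

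The comparison of scMeT-seq with whole cells, all lactate-treated, asks how these genes are read after cytoplasm has been drawn off. Of 9 measured genes, 3 were at least 2-fold higher in scMeT-seq cells and 0 at least 2-fold lower, against 21.7% and 20.6% of 9723 genes. *Il1b* had 132, 0, 529 and 32.4 CPM in the scMeT-seq cells Lactic13, Lactic14, Lactic16 and Lactic17, against 107, 13.1 and 3.15 CPM in the whole cells. The log2 ratio was 2.27 (1.89 to 2.68), but 0.68 without Lactic16, which held 75.1% of the scMeT-seq counts, 4.45 without Lactic5 and 1.66 without Lactic7, and 0.51 once the 2 control whole cells were added.

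*Il18* had 0, 7.70, 36.4 and 32.4 CPM in scMeT-seq cells against 14.2, 6.53 and 0 CPM in whole cells (log2 ratio 1.64, 0.67 to 2.73, and 0.99 without Lactic7 and 2.62 without Lactic5). *Nlrp3* had 174, 0, 0 and 16.2 CPM in scMeT-seq cells against 0, 42.4 and 7.87 CPM in whole cells. Its log2 ratio of 1.49 (0.91 to 2.11) rested on Lactic13, with 91.0% of the scMeT-seq counts, and turned to −1.54 without it, while it was 3.50 without Lactic6 and 0.04 by the median of cells. Lactic13 also held 92.9% of the *Il1a* and 98.6% of the *Il1rap* counts, and without it *Il1a* stood at −2.63 and *Il1rap* at −4.91.

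*Pycard* was the steadiest gene here, with 179, 162, 167 and 268 CPM in scMeT-seq cells against 245, 246 and 168 CPM in whole cells (log2 ratio −0.14, −0.34 to 0.06). *Gsdmd* had 1.57, 53.9, 64.5 and 95.8 CPM in scMeT-seq cells against 48.5, 147 and 94.4 CPM in whole cells (log2 ratio −0.87, −1.21 to −0.54), *Il1rn* was at 0.95 (0.72 to 1.19, and 0.49 to 1.58 as each cell was left out) and *Casp1* at 0.71 (0.24 to 1.19, and 0.12 to 1.00 as each cell was left out). Over all 35 cells, *Pycard* had a count in 34, *Gsdmd* in 30, *Il1rn* in 28, *Casp1* in 23, *Il18* in 20, *Nlrp3* in 19, *Il1a* and *Il1b* in 18 each, *Il1rap* in 16 and *Il1r2* in 0.

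The number of the 10 genes with a count per cell was 6 to 9 in lactate-treated and 2 to 8 in control cells of the lactate experiment, with the lowest in CTL32. It was 2 to 5 in lactate+AZD and 4 to 6 in lactate cells of the AZD3965 experiment, and 6 to 9 in the technique comparison. Thinning every cell of the lactate experiment to the smallest library changed these detections for *Gsdmd* alone, which was found in 7 in place of 8 control cells.

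Other genes of the pathway were taken from 6 lists (further IL-1 family ligands, IL-1 and IL-18 receptors, signalling, inflammasome sensors, inflammasome regulators, and other caspases and pores). These lists, too, were chosen with earlier results of these data known. In the lactate scMeT-seq comparison 14 of 50 measured genes (28%) were at least 2-fold higher and 10 (20.0%) at least 2-fold lower, beside 15.1% and 22.0% of all genes. The higher genes include *Il1r1* and the lower ones *Il33*, whose counts in this experiment lay only in fibroblast-marked cells. These shares were not computed without those cells. Among the sensors 4 of 11 were higher and 1 was lower. *Aim2*, a sensor of cytosolic DNA, was at 61.8 CPM in lactate-treated and 28.9 CPM in control cells (log2 ratio 1.10), *Mefv*, which encodes pyrin, at 29.6 and 6.80 CPM (2.12), and *Nod1*, a sensor of bacterial peptidoglycan, at 37.5 and 89.0 CPM (−1.25). *Naip5*, which detects flagellin, was at 44.4 and 19.4 CPM (1.20) and has near-identical relatives whose reads may be shared.

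In the signalling list 1 of 12 genes was higher and 2 were lower. The kinase gene *Irak1* was at 74.3 CPM in lactate-treated and 27.2 CPM in control cells (log2 ratio 1.45), and the ubiquitin ligase gene *Traf6*, which acts just downstream, at 25.3 and 67.0 CPM (−1.40). Of 9 other caspases and pore genes 3 were higher and 3 lower, with *Gsdme* at 1.78 and *Casp4*, which senses cytosolic lipopolysaccharide as caspase-11, at −2.22.

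In whole cells 7 of 46 pathway genes (15.2%) were at least 2-fold higher and 13 (28.3%) at least 2-fold lower with lactate, close to the 15.2% and 27.6% of all genes. Of 44 pathway genes measured in both lactate comparisons, 3 were at least 2-fold higher in both (6.82%), 2 at least 2-fold lower in both (4.55%) and 5 past 2-fold in opposite directions (11.4%), beside 2.13%, 5.30% and 8.13% of the 9395 genes measured in both. The 3 were *Gsdme*, with 95.8 CPM in lactate-treated and 27.6 CPM in control whole cells (log2 ratio 1.79), *Naip5* (2.37) and *Brcc3* (1.15). The 2 were *Tab3* (−2.18) and *Pstpip1* (−1.25). *Naip6*, a relative of *Naip5*, was at −2.46 in whole cells (18 counts in lactate-treated and 80 in control cells) and at 0.15 in scMeT-seq cells. Whether reads were shared between *Naip5* and *Naip6* was not tested. *Nod1* (3.37), *Irak1* (−1.17) and *Ripk3* (−1.68 in scMeT-seq cells but 2.81 in whole cells), which encodes a kinase of necroptosis, were among those that pointed in opposite directions, and the differences between the comparisons were not tested. *Irak3*, which restrains IL-1 signalling, was at 230 CPM in lactate-treated and 510 CPM in control whole cells (−1.15), and at 295 and 160 CPM in scMeT-seq cells (0.88, under 2-fold).

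With AZD3965, 11 of 40 pathway genes (27.5%) were at least 2-fold higher and 4 (10.0%) at least 2-fold lower, beside 24.9% and 15.6% of all genes. In the signalling list, *Irak4* was at 25.8 CPM with the inhibitor and 84.6 CPM with lactate alone (log2 ratio −1.71), *Tab2* at 22.4 and 77.7 CPM (−1.80), and *Map3k7*, which encodes the kinase TAK1 that binds TAB2, at 89.5 and 15.3 CPM (2.55). In lactate+AZD and lactate cells these rested on 15 and 61 counts of *Irak4*, 13 and 56 of *Tab2* and 52 and 11 of *Map3k7*. *Irak4* and *Tab2* each had a count in 2 of 5 lactate+AZD cells, and *Map3k7* in 2 of 5 lactate cells. Halved counts were not tried for these genes. The fibroblast-marked cell W14 was kept in, and its 69 counts of *Il1r1* make that gene 1 of the 11. For scMeT-seq over whole cells 12 of 47 were higher (25.5%) and 11 lower (23.4%), beside 21.7% and 20.6% of all genes.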

How the data were processed

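Single-cell RNA libraries of 35 cells from cultures of peritoneal macrophages were analysed. Per the labels and the study's methods, the authors trimmed the reads with fastp 0.20.0, aligned them to mm10 with HISAT2 2.1.0, assigned them to genes with StringTie (version not given in the sources used here) and deposited whole-number counts without normalization or molecular identifiers. Groups follow the sample titles.

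For each gene the counts of all cells in a group were added up, converted to CPM and compared as a log2 ratio with an exact conditional binomial 95% interval, over genes with at least 10 counts. Where a group had no count, 3 counts over the group served as the floor. Rows of 1 symbol were summed. Intervals were tested on simulated data. Python 3.11.15, numpy 2.4.6, pandas 2.3.3, scipy 1.17.1, matplotlib 3.10.9 and, for TMM, edgeR 4.0.16 in R 4.3.3 were used. Exon lengths and coordinates came from GENCODE M21, and promoter windows from RefSeq.

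The 10 genes and all lists were chosen with earlier results of these data known. All 10 are named. A pathway gene could be named if it was past 2-fold, had 50 or more counts and was detected in at least 50% of the cells of the higher group, at most 4 per list. *Il1r1*, *Il33*, *Brcc3*, *Naip6*, *Tab3* and *Pstpip1* were named after their values had been seen. The genes most like *Il1b* are the 5 with the highest Spearman correlations, predicted genes left out.

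The alternatives tried were per-cell means and medians, TMM, other count filters, a 4-fold limit, thinning, leaving out cells with markers of other cell types, cells of 1 name letter, the control whole cells added, and each cell left out in turn. The gene length of the *Il1b* share and of the order per kb, that share without fibroblast-marked cells, and thinned detection were added after the data had been seen. Metabolomes were not analysed here. Values of a further pathway gene are not reported here.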

Additional observations from a re-analysis of the deposited data

Results flagged for a closer look

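In 41 sets of 4 to 8 cells, 6 single cells lay far from the nearest other cell of their group on the log2(CPM + 1) scale. Chance alone sets apart about 1 in 20 groups where values are normally distributed, a rate that need not hold for values with many zeros. Most of these cases come from a gene with a count in just 1 cell.

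In the lactate experiment *Gsdmd* was at 2.53 CPM in the control cell CTL30, which carries fibroblast markers, below the other 7 control cells. In the technique comparison *Gsdmd* was at 1.57 CPM in Lactic13, 1 count, below the other scMeT-seq cells.

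In the AZD3965 experiment T10 was the lactate+AZD cell that had a count of *Il1rn* (14.2 CPM) and of *Casp1* (56.7 CPM). Among the lactate cells, T13 had the counts of *Il18* (17.1 CPM) and F18 those of *Nlrp3* (66.3 CPM). Each of these 4 values stood against 0 in the other 4 cells.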

How the results depend on the processing

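No paired analysis was possible because no result comes from a test and the sources used here give neither the animal or culture of a cell, nor whether cells of 2 groups with the same number in their names belong together, nor the meaning of the letters T, W and F in the cell names of the AZD3965 experiment. In the main setting 9 genes were measured (7 with AZD3965), and the counts of genes past 2-fold moved in many settings. Some settings measured fewer genes. With 100 or more counts only *Pycard* was left with AZD3965, and only *Il1b*, *Il1rn*, *Pycard* and *Gsdmd* in whole cells. *Il1a*, the gene that was higher in whole cells, was left out there by that filter. For lactate in scMeT-seq cells, leaving out each cell in turn gave 3 to 4 higher and 0 to 1 lower, and leaving out the fibroblast-marked cells gave 3 higher and 1 lower. There 5 of 8 measured genes were higher by the median of cells, and 3 of 9 by the mean of cells and after thinning. For lactate in whole cells, 1 gene was lower by the mean of cells, by TMM, with 100 or more counts, at 4-fold and after thinning, in place of 2. There 0 were higher with 100 or more counts and 2 after thinning, and leaving out each cell gave 1 to 2 higher and 1 to 3 lower. With AZD3965, 2 were higher by the median of cells and among the cells of letter W, and 0 with 100 or more counts, without the fibroblast-marked cell and in letters T and F. 0 were lower with 100 or more counts and 1 in letters T and F, and leaving out each cell gave 0 to 2 higher and 2 to 4 lower. For scMeT-seq over whole cells, 2 were lower by the median of cells and 1 was higher at 4-fold, and leaving out each cell gave 3 to 6 higher and 0 to 3 lower. Among single genes, *Casp1* with AZD3965 turned to 0.92 in letter T. Leaving out each cell, *Il18* in whole cells ran between −1.99 and 0.24 and *Nlrp3* in scMeT-seq over whole cells between −1.54 and 3.50. The cause was not tested. *Il1b* and *Il18* in the lactate scMeT-seq comparison, and *Il1a* there against the floor, stayed above 2-fold in every setting run that gave a value.

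Intervals cover counting error only, and the AZD3965 values of *Il1rn*, *Il18*, *Casp1* and *Il1rap* rest on between 2 and 40 counts per group. Differences between single cells, between animals or cultures, and in amplification cannot be told apart.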

Other observations

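The gene of the signalling IL-1 receptor, *Il1r1*, was found almost entirely in the cells with fibroblast markers. It had 724 counts in Lactic29 (1773 CPM), 272 in CTL32 (753 CPM), 14 in CTL30 (35.4 CPM) and 69 in W14 (488 CPM), which are the 4 cells whose fibroblast markers reached 10% of the macrophage markers, and otherwise 6 counts in CTL4 and 1 in Lactic16. *Il33*, an IL-1 family cytokine of stromal cells, had 503 counts (1392 CPM) in CTL32 and was at 0 in the other 34 cells. The summed ratio of *Il1r1* in the lactate experiment (log2 1.29) thus sets 1 lactate-treated cell against 2 control cells.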
